A study of Homo sapiens with 15 samples.

Results

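The genes of cholesterol and fatty acid synthesis described here are 32 genes of 18858 in the deposited table, chosen by symbol from the biosynthetic steps and the regulators that control them, and all 32 were present. RNA was measured in MDA-MB-231, an established human breast cancer cell line that degrades gelatin, to ask how loss of YAP and TAZ changes its transcriptome. Control cells were left untransfected, siControl cells received a non-targeting siRNA pool, siYAP cells a pool against YAP1, siTAZ cells a pool against WWTR1 (the gene of TAZ), and siYAP+TAZ cells both pools. Each pool was used at 30 nM, the knockdown lasted 48 h, and the cells then stood on gelatin for 5 to 6 h. The total amount of siRNA per group is not stated. If the siYAP+TAZ cells received each pool at that concentration, they held more siRNA in total than the other transfected cells. Such a difference in amount cannot be told apart from the double knockdown. Each group had 3 libraries: 16, 21 and 26 for Control, 17, 22 and 27 for siControl, 18, 23 and 28 for siYAP, 19, 24 and 29 for siTAZ, and 20, 25 and 30 for siYAP+TAZ.

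Cells make cholesterol from acetyl-CoA through the mevalonate pathway, squalene and a series of sterol intermediates, and they make fatty acids from the same precursor. Both routes are controlled by the SREBP transcription factors, which are made as membrane precursors, escorted by SCAP out of the endoplasmic reticulum when sterols are low, and held back there by the INSIG proteins when sterols are high. YAP and TAZ are co-activators of the Hippo pathway that act mainly through TEAD factors.

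The siRNA targets were read first. YAP1 had 4431, 4333 and 4202 normalized counts in siControl, 1013, 2764 and 761 in siYAP, 4996, 4390 and 4393 in siTAZ, and 2240, 2202 and 1796 in siYAP+TAZ. WWTR1 had 1995, 1850 and 1579 in siControl, 1956, 1423 and 2001 in siYAP, 828, 254 and 521 in siTAZ, and 1133, 1123 and 1284 in siYAP+TAZ. The libraries of each targeted group lay below every siControl library for the gene targeted, and siYAP library 23 kept the most YAP1 of its group. The loss was partial in siYAP+TAZ: the log2 difference from siControl was -1.06 (SE 0.37, edgeR adjusted p = 0.0723) for YAP1 and -0.62 (SE 0.30, edgeR adjusted p = 0.199) for WWTR1. Normalized counts are raw counts scaled to the mean effective library size, and total counts lay between 18696737 and 30107312 per library. Per the paper, the libraries stem from independent sets of experiments, but the membership of each set is not given.

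The line's own markers were abundant in all 15 libraries, with VIM between 24540 and 33930, CD44 between 19210 and 26320 and KRT18 between 4893 and 6836 normalized counts. Measured markers of adipocytes (1 of 4 listed), hepatocytes (1 of 4) and fibroblasts (2 of 4) were low, with PLIN1 at most 10.7, APOA1 at most 11.1 and LUM at most 7.15 normalized counts, apart from COL1A1, which had 408, 469 and 229.6 in siControl and 472, 484.5 and 529.5 in siYAP+TAZ, without overlap and without passing (0.42, SE 0.22, edgeR adjusted p = 0.218). Among luminal epithelial markers, PGR was at most 8.32 and EPCAM between 243.6 and 407.5 normalized counts. Of 4 endothelial markers listed, 1 was measured: PECAM1 stood at 17.9, 15.7 and 8.58 normalized counts in siControl and 131, 158 and 66.1 in siYAP+TAZ, higher by 3.03 on the log2 scale (edgeR adjusted p = 9.09e-06). Of 2 immune markers measured among 4 listed, PTPRC was at most 5.10 normalized counts, and the sum of both was 18.7, 23.1 and 18.2 in siControl and 45.2, 38.7 and 36.7 in siYAP+TAZ, most of it CD14, which was higher by 1.20 (edgeR adjusted p = 0.00197). The immune sum was also above every siControl library in siYAP (39.07, 31.79 and 35.94) and in siTAZ (26.69, 25.78 and 30.85). The fibroblast markers together stood at 666.8 in siTAZ library 24. PECAM1, CD14 and COL1A1 were higher in the same siYAP+TAZ libraries as the results that follow. The part of these markers in the results of any group was not tested. In bulk RNA, fewer cells of a kind and less RNA per cell cannot be told apart.

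Levels can be compared between genes only per length. They are given here as reads per kilobase of merged exon, per 1e6 of effective library size (counted reads times the TMM factor). By this measure FASN, the fatty acid synthase, was the most abundant member in siControl at 124 ± 4.87 (SD, n = 3), followed by ACLY, which makes cytosolic acetyl-CoA, at 98.6 ± 3.69, and SCD, the stearoyl-CoA desaturase, at 66.4 ± 10.3. The 3 lay above every other member, the next being NSDHL at 28.6 ± 2.91. The 4 after NSDHL, down to DHCR7 at 25.4 ± 2.26, each differed from the one before by less than the larger of their SDs. TM7SF2, a sterol reductase, stood near the bottom at 2.16 ± 0.47, with HSD17B7 at 1.30 ± 0.22 and CYP51A1 at 1.21 ± 0.08 below it. CYP51A1 shares 67.5% of its stretches of 50 bases with transcripts of other genes in GENCODE release 44, EBP 31.4% and HSD17B7 14.2%, so their levels are uncertain.

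**Figure D1:**
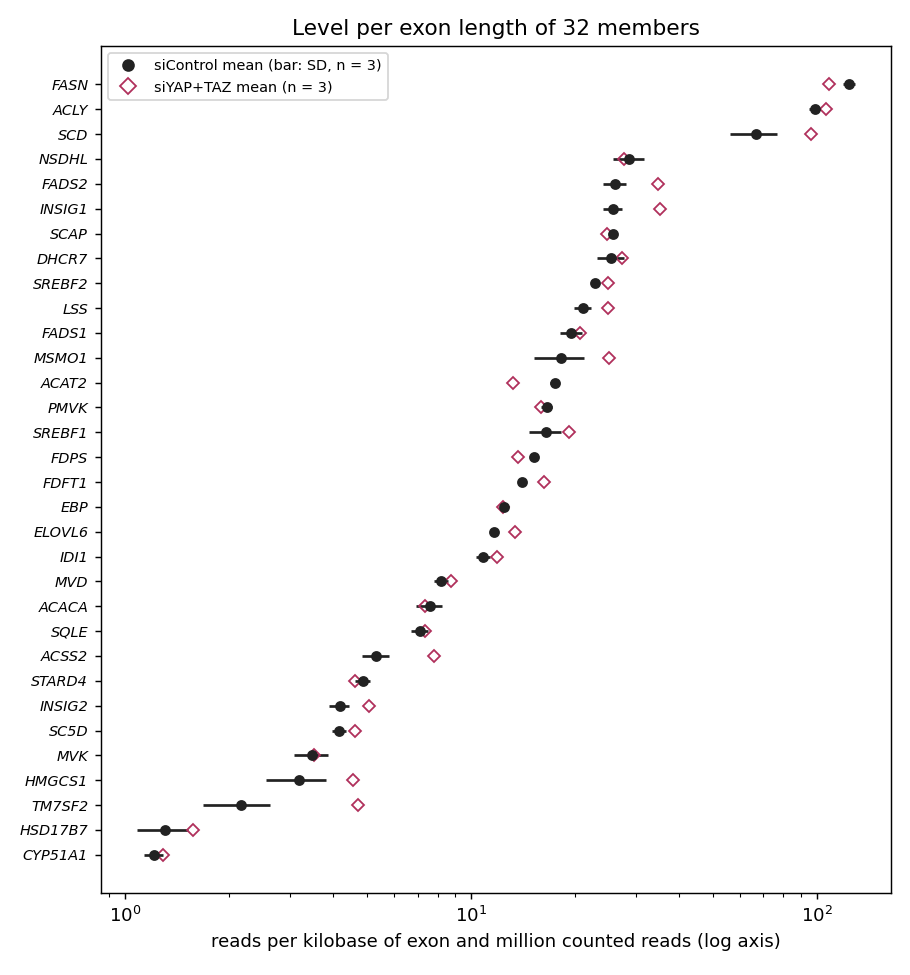
Level of each of the 32 members per exon length on a log axis, as the siControl mean with its SD over 3 libraries (filled) and the siYAP+TAZ mean (open). FASN, ACLY and SCD stand apart at the top, and TM7SF2 shows the widest gap between the 2 groups, from 2.16 to 4.72.

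With both co-regulators depleted, 7 of 32 members were higher than in siControl and 1 was lower at an adjusted p of at most 0.05. Over all genes tested, 9.97% were higher and 8.39% lower by the same rule. The members higher were TM7SF2, ACSS2, SCD, MSMO1, INSIG1, LSS and ELOVL6, and ACAT2 was lower. Only TM7SF2 also reached a log2 fold change of 1, the threshold of the study's methods, which 3.14% of all genes passed upwards. The median log2 fold change of the members was 0.12, against 0.00 for all genes, and 23 of the 32 were above 0. Every siYAP+TAZ library lay above every siControl library for 9 members and below for 3, that is 28.1% and 9.38% of them, beside 18.2% of all genes upwards and 18.2% downwards. With library size as the only scaling, 16 members lay above and 3 below, beside 21% and 14.3% of all genes. The count of 8 fell when 1 library was left out: it was 3 without siControl library 17, and 5 without siControl library 22 or without siYAP+TAZ library 25. These fits have fewer libraries and can call fewer genes of any kind, and their share of all genes is not given here. TM7SF2, ACSS2 and ACAT2 kept their call in all 6 fits that left out a library, INSIG1 in 5, LSS, SCD and ELOVL6 in 2 each, and MSMO1 in 1.

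**Figure D2:**
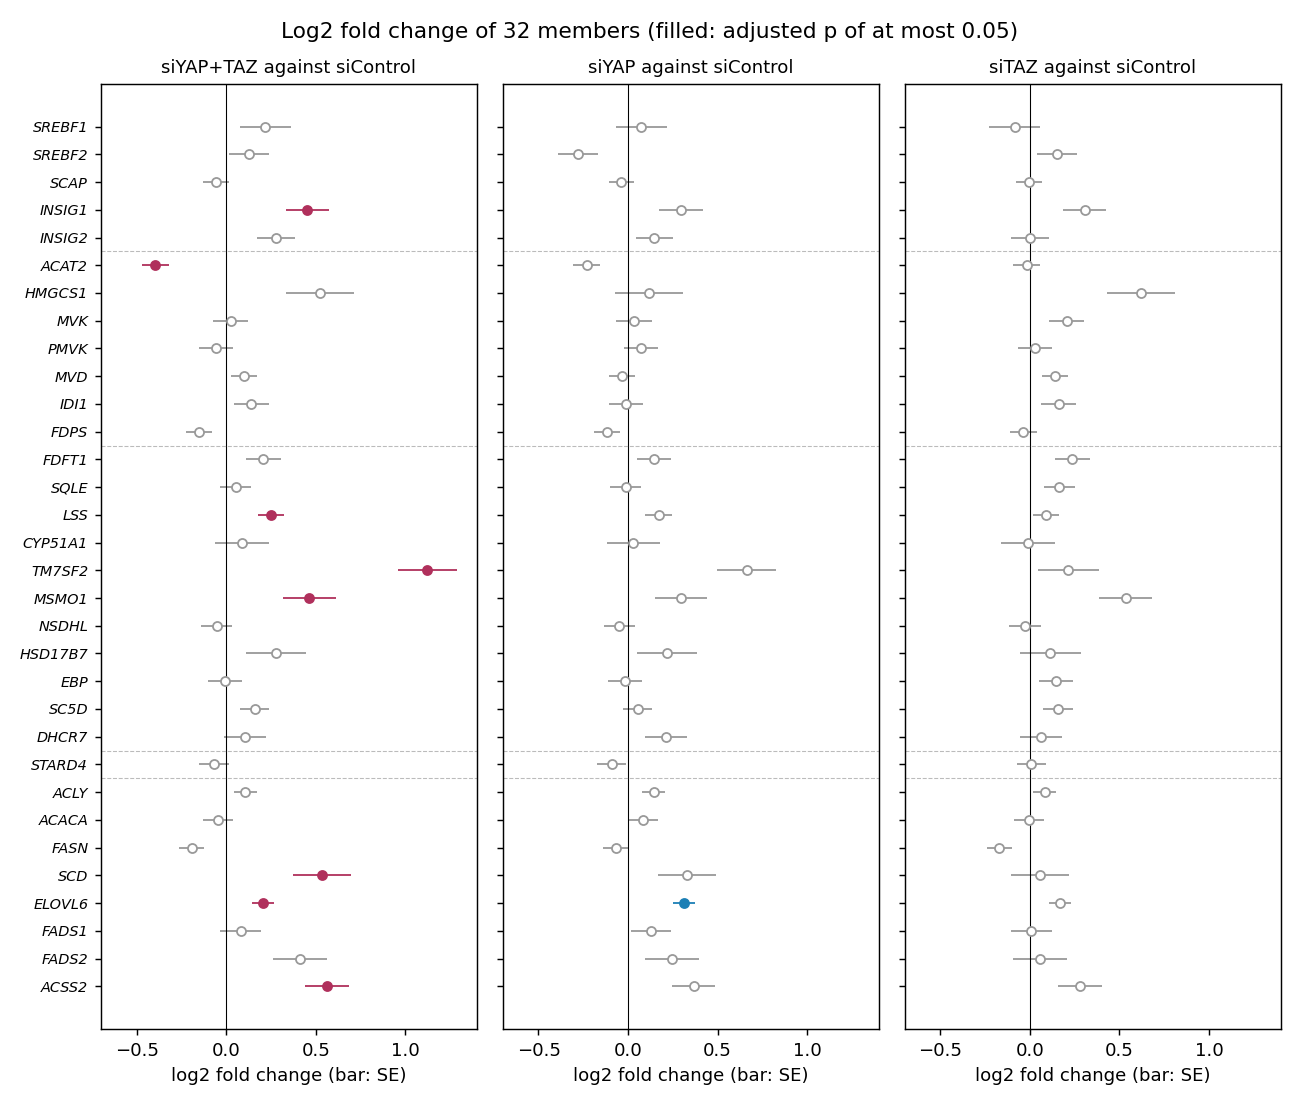
Log2 fold change of each member with its SE in the 3 comparisons with siControl, ordered by role (dashed lines), filled where the adjusted p was at most 0.05. TM7SF2 reached 1.12 in siYAP+TAZ, and ELOVL6 was the only filled point in siYAP. The 3 comparisons share the siControl libraries.

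To show the regulatory sequence beside these changes, the 250 bases before the start are printed for 4 members that rose and for SREBF2. RefSeq promoters (GRCh38.p14) were found for 28 of the 32 members, with 39 starts. The motifs searched on both strands were TCACNCCAC (a sterol regulatory element), CACGTG (an E-box), CCAAT (bound by NF-Y) and GGAATG (bound by TEAD factors). CCAAT or its reverse lay in 25 of the 39 member promoters of 300 bases, 64.1%, and in 34.6% of all 35116 promoters of that length. TCACNCCAC lay in 1 member promoter, that of SREBF2, and in 1.13% of all, while CACGTG lay in 12.8% and 7.26% and GGAATG in 12.8% and 14.0%. In the sequences below, in lower case and 5′ to 3′ on the gene's strand, capitals mark CCAAT or its reverse ATTGG and, in SREBF2 alone, TCACCCCAC as well.
TM7SF2, chr11:65111622-65111871, plus strand: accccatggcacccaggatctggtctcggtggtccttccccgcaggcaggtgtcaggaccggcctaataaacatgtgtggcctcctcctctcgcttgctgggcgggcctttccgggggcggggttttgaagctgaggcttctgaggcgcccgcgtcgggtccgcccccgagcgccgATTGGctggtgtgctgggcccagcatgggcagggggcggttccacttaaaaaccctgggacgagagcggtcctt
MSMO1, chr4:165327419-165327668, plus strand: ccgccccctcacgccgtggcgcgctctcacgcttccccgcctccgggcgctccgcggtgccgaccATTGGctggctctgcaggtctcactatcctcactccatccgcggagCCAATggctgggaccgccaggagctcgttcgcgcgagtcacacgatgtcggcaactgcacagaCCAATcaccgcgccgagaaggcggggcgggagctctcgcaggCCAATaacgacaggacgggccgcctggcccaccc
INSIG1, chr7:155297628-155297877, plus strand: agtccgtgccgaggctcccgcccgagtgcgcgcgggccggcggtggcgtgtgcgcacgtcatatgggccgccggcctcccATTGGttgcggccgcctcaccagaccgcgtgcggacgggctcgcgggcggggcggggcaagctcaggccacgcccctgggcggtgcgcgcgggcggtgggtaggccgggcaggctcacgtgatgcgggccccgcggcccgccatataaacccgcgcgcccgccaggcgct
SCD, chr10:100346983-100347232, plus strand: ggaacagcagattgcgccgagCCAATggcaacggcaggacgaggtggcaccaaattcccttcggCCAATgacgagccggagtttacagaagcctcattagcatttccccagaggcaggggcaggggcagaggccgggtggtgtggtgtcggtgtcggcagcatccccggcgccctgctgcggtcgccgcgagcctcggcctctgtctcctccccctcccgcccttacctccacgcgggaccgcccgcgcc
SREBF2, chr22:41832855-41833104, plus strand: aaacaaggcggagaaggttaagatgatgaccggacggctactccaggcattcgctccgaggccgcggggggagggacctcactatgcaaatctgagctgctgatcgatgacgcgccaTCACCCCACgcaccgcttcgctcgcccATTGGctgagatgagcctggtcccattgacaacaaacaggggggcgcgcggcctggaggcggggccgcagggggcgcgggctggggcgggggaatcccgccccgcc
The MSMO1 promoter held CCAAT at 4 places, beginning 185, 139, 76 and 34 bases before the start, and that of SCD at 2, 229 and 186 bases before. TM7SF2 held it 74 bases and INSIG1 170 bases before the start. In SREBF2 the sterol regulatory element began 133 bases and CCAAT 106 bases before the start. Of the other members that rose, LSS held CCAAT 150 bases before the start and ACSS2 123 bases before 1 of its starts, while ELOVL6 held neither motif. Members that did not pass varied as well: MVK and NSDHL held CCAAT at 5 places each and FDPS at 3, and PMVK and SCAP held none. Whether the motif goes with a rise was not tested. A match is a string of letters, and binding was not measured.

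Among the 5 regulators, INSIG1, which retains SREBP precursors, was the member that rose. INSIG1 had 2091, 2208 and 2366 normalized counts in siControl and 3089, 2947 and 3082 in siYAP+TAZ. All siYAP+TAZ libraries lay above all siControl libraries, by 0.45 on the log2 scale (SE 0.12, edgeR adjusted p = 0.0139), which missed the threshold without siControl library 17 (edgeR adjusted p = 0.0576). Its paralog INSIG2 had 419, 378 and 371 against 450, 475 and 491 normalized counts, without overlap, and the difference of 0.28 (SE 0.10) did not pass (edgeR adjusted p = 0.0758), though it did with library size only and with a replicate block. SREBF1, which encodes SREBP-1, differed by 0.22 (SE 0.14, edgeR adjusted p = 0.338), and it passed with a replicate block (edgeR adjusted p = 0.0202). SREBF2, which encodes SREBP-2, differed by 0.13 (SE 0.11, edgeR adjusted p = 0.488) and SCAP by -0.06 (SE 0.07, edgeR adjusted p = 0.654).

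SREBF2 lay on opposite sides of siControl in the groups with 1 target, and neither difference passed: it was -0.28 (SE 0.11, edgeR adjusted p = 0.306) in siYAP and 0.15 (SE 0.11, edgeR adjusted p = 0.556) in siTAZ. With a replicate block the siYAP difference passed (edgeR adjusted p = 0.00829) and that in siTAZ did not (0.188). It had 4334, 4387 and 4312 normalized counts in siControl, 3497, 4251 and 2993 in siYAP, and 4944, 5121 and 4408 in siTAZ. Every siYAP library lay below and every siTAZ library above the siControl libraries. The untransfected Control libraries spread more widely, between 3946 and 4804, and overlapped both siYAP and siTAZ. In siYAP+TAZ the counts were 5061, 5029 and 4156, on both sides of siControl. The siYAP library nearest to siControl was 23, the one with the most YAP1 left, and the link was not tested. The direct difference between siYAP and siTAZ was -0.43 (SE 0.11), with an edgeR adjusted p of 0.0915, and it passed with DESeq2, with a replicate block (0.000281) and without siYAP library 23. Between siYAP+TAZ and siYAP it was 0.41 (SE 0.11, edgeR adjusted p = 0.0418), lost without siYAP library 18 (0.142) or 28 (0.15) and without siYAP+TAZ library 20 (0.151) or 25 (0.164). An antisense gene, SREBF2-AS1, covers 9.08% of the exonic bases of SREBF2, and its difference between siYAP+TAZ and siControl was 0.50 (SE 0.23, edgeR adjusted p = 0.147).

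The 7 genes of the mevalonate steps held the 1 member that edgeR called lower. ACAT2 encodes the cytosolic thiolase that joins acetyl-CoA units, and it had 1124, 1062 and 1082 normalized counts in siControl against 843, 796 and 842 in siYAP+TAZ. The groups did not overlap, and on the log2 scale the difference was -0.40 (SE 0.08, edgeR adjusted p = 0.0011). ACAT2 (chr6:159762045-159779112) overlaps TCP1 on the opposite strand over 17.2% of its exonic bases and SOD2 over 5.04%. Whether reads were counted by strand is not stated, so reads of these genes cannot be told apart there. TCP1, at a mean of 6826 normalized counts in siControl, fell as well, by 0.35 on the log2 scale (SE 0.06, edgeR adjusted p = 0.000588), and SOD2 differed by 0.12 (SE 0.14, edgeR adjusted p = 0.595).

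HMGCS1, the HMG-CoA synthase, had 434, 448.5 and 610 normalized counts in siControl, 452, 593 and 573 in siYAP, 568, 920 and 811 in siTAZ and 580, 674 and 886 in siYAP+TAZ. The groups overlapped through siControl library 27, and the differences of 0.53 (SE 0.19) in siYAP+TAZ and 0.62 (SE 0.19) in siTAZ did not pass (edgeR adjusted p = 0.0717 and 0.112). DESeq2 called both, and edgeR called both with a replicate block, the first also with library size only and without siControl library 27 or siYAP+TAZ library 20, and the second also without siTAZ library 19. An antisense transcript covers 37.7% of its exonic bases. The other 5 members of these steps, MVK, PMVK, MVD, IDI1 and FDPS, lay between -0.15 and 0.14, and 2 of them separated from siControl in siYAP+TAZ without passing, MVD upwards (edgeR adjusted p = 0.413) and FDPS downwards (edgeR adjusted p = 0.168).

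Of the 11 genes from squalene to cholesterol, 3 rose and 8 did not pass. TM7SF2, a sterol C14 reductase, had 200, 191 and 130 normalized counts in siControl, 267, 290 and 271 in siYAP, 210, 241 and 154 in siTAZ and 400, 417 and 326 in siYAP+TAZ. The siYAP+TAZ libraries were above every library of the other groups, and the siYAP libraries above every siControl library. On the log2 scale they differed from siControl by 1.12 (SE 0.17, edgeR adjusted p = 0.000125) in siYAP+TAZ, 0.66 (SE 0.17, edgeR adjusted p = 0.0662) in siYAP and 0.22 (SE 0.17, edgeR adjusted p = 0.596) in siTAZ. The siYAP difference was called by DESeq2 and by edgeR with a replicate block. Without siControl library 27, its lowest library, the value in siYAP+TAZ was 0.96, below the threshold of 1. MSMO1, the sterol C4 methyl oxidase, had 1076, 1145 and 1455 normalized counts in siControl, 1636, 1599 and 1831 in siYAP+TAZ and 1397, 2257 and 1671 in siTAZ. Its siYAP+TAZ libraries stood above siControl, at 0.46 (SE 0.15, edgeR adjusted p = 0.0382), while siTAZ gave 0.53 (SE 0.15, edgeR adjusted p = 0.0738) with library 24 far above the others. The MSMO1 call was kept without siControl library 27 and lost without any 1 of the other 5, with edgeR adjusted p between 0.0627 and 0.145. LSS, which closes squalene epoxide into lanosterol, had 3368, 3646 and 3767 normalized counts in siControl and 4051, 4401 and 4365 in siYAP+TAZ. They did not overlap, at 0.25 (SE 0.07, edgeR adjusted p = 0.0224), and the call was lost without siControl library 17 or 22 or siYAP+TAZ library 25 or 30 (edgeR adjusted p between 0.055 and 0.111) and with Control as the reference (0.101). The 8 others, among them SQLE and FDFT1 at the entry to the branch and DHCR7 at its end, lay between -0.05 and 0.28. STARD4, a carrier of sterols between membranes, differed by -0.07 (SE 0.08, edgeR adjusted p = 0.628).

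Among the 8 genes of fatty acid synthesis and desaturation, 3 rose. ACSS2, which makes acetyl-CoA from acetate, had 623, 625 and 730 normalized counts in siControl, 810, 762 and 979 in siYAP, 761, 793 and 848 in siTAZ and 901, 862 and 1153 in siYAP+TAZ. Every knockdown library was above every siControl library, and the difference was 0.56 (SE 0.12, edgeR adjusted p = 0.00286) in siYAP+TAZ, with 0.37 (edgeR adjusted p = 0.179) in siYAP and 0.28 (edgeR adjusted p = 0.255) in siTAZ not passing. With a replicate block edgeR called both (adjusted p = 0.00261 and 0.0137). SCD had 8761, 9167 and 6789 normalized counts in siControl, 12930, 13000 and 9903 in siYAP+TAZ and 10480, 7316 and 7914 in siTAZ. In siYAP it lay between 9100 and 11150, overlapping siControl. There SCD was called only with a replicate block (0.33, SE 0.09, edgeR adjusted p = 0.0451). The siYAP+TAZ libraries were above siControl without overlap, at 0.54 (SE 0.16, edgeR adjusted p = 0.0339), a call lost without siControl library 17 or 27 or siYAP+TAZ library 20 or 25 (edgeR adjusted p between 0.0573 and 0.121). ELOVL6, which lengthens saturated fatty acids, had 2040, 2011 and 1958 normalized counts in siControl, 2406, 2499 and 2555 in siYAP, 2210, 2265 and 2276 in siTAZ and 2221, 2233 and 2474 in siYAP+TAZ. All 9 knockdown libraries lay above siControl. The difference was 0.21 (SE 0.06, edgeR adjusted p = 0.029) in siYAP+TAZ, lost without siControl library 17, 22 or 27 or siYAP+TAZ library 30 (edgeR adjusted p between 0.0526 and 0.126). FASN had 26130, 27340 and 28270 normalized counts in siControl and 23880, 24750 and 22900 in siYAP+TAZ. The FASN groups did not overlap, but -0.19 (SE 0.07) did not pass (edgeR adjusted p = 0.0674). DESeq2 and limma-voom did call FASN lower, as did edgeR with Control as the reference or with a replicate block. FADS2, a fatty acid desaturase, differed by 0.41 (SE 0.15, edgeR adjusted p = 0.0753) and was called by DESeq2, with only the groups compared, with a replicate block and without siYAP+TAZ library 30. FDFT1 was also called with the block and without that library. ACLY, ACACA and FADS1 lay between -0.05 and 0.11.

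**Figure D3:**
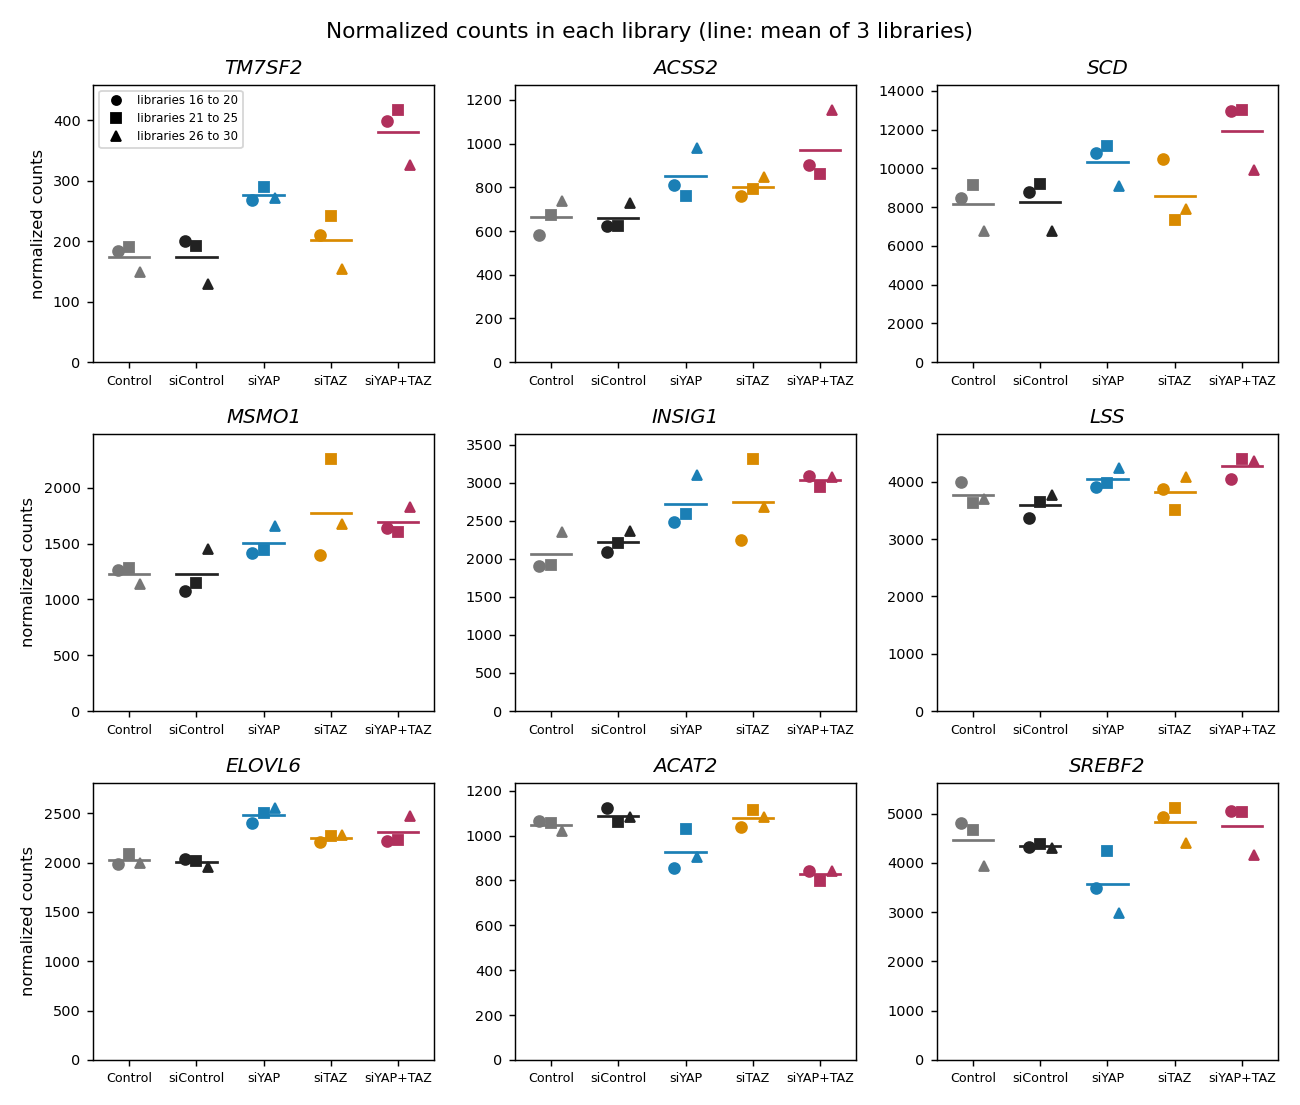
Normalized counts of the 8 members called in siYAP+TAZ and of SREBF2 in each library, with the group mean as a line and the shape giving the run of library numbers. The 3 siYAP+TAZ libraries of TM7SF2, between 326 and 417, lie above all others, and the siYAP libraries of SREBF2 lie below siControl.

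With 1 pool, edgeR called few members in the fit without a replicate block. In siYAP against siControl, ELOVL6 was the 1 member higher, at 0.31 (SE 0.06, edgeR adjusted p = 0.0213), beside 0.477% of all genes higher. The ELOVL6 call was lost without siControl library 17, 22 or 27 and without siYAP library 18 or 28, with edgeR adjusted p between 0.0548 and 0.105. No overlap with siControl was seen for 8 members upwards and 2 downwards, against 9.65% and 9.86% of all genes. In siTAZ, edgeR called 0 of 32 members, beside 2.03% of all genes in either direction. At an unadjusted p under 0.05 there were 7, DESeq2 called 2 (HMGCS1 and MSMO1) and limma-voom 0. The share of all genes is not given for these counts or for later ones at an unadjusted p. They are therefore not read as a trait of the members or lists. Without siTAZ library 19 the count was 3 (HMGCS1, INSIG1 and MSMO1), and without siControl library 27 it was 1 (MSMO1). Members without overlap numbered 7 upwards and 1 downwards, against 10.7% and 10.2% of all genes. The medians of the members were 0.08 in siYAP and 0.09 in siTAZ, and these comparisons share the siControl libraries with that of siYAP+TAZ.

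The groups were also set directly against each other. Their targets were not depleted equally. WWTR1 averaged 1180 normalized counts in siYAP+TAZ and 534 in siTAZ, without overlap. YAP1 averaged 2079 in siYAP+TAZ and 1513 in siYAP, with overlap. These comparisons and the interaction therefore do not add 1 knockdown to an equal other, and the part of this difference was not tested. Between siYAP+TAZ and siYAP, SREBF2 was the 1 member higher, where 3.43% of all genes were. A replicate block added HMGCS1 and TM7SF2, with 14.6% of all genes called in either direction. Between siYAP+TAZ and siTAZ, TM7SF2 was higher by 0.91 (SE 0.17, edgeR adjusted p = 0.00375) and ACAT2 lower, at -0.38 (SE 0.08, edgeR adjusted p = 0.0063), beside 3.06% and 2.38% of all genes. Without siTAZ library 19 this comparison called 4 members, INSIG2 and SCD in addition. A replicate block added ACSS2, FADS2, INSIG2, SCD and SREBF1, all higher, with 14.8% of all genes called. Between siYAP and siTAZ edgeR called 0 members and 0.642% of all genes, with 6 members at an unadjusted p under 0.05. DESeq2 called 1 (SREBF2) and limma-voom 0. With a replicate block edgeR called TM7SF2 higher and HMGCS1 and SREBF2 lower, beside 7.32% of all genes. The interaction, which asks whether the double knockdown departs from the sum of both, called 0 members with edgeR, DESeq2 and limma-voom and 0.0106% of all genes. At an unadjusted p under 0.05 the interaction held 1 member, ELOVL6 at -0.27 (SE 0.09, edgeR adjusted p = 0.643). Between siControl and Control 0 members were called by edgeR, DESeq2 and limma-voom, 0 had an unadjusted p under 0.05, and 0% of all genes were called. No member separated these 2 groups, where 5.83% of all genes did, and the members' median was -0.02.

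The library numbers run in 3 consecutive stretches of 5, each with 1 library of every group, and whether these stretches are those sets of experiments is not stated. In libraries 26 to 30, 9 members were lower than the mean of the other 2 libraries in all 5 groups and 5 were higher in all 5, 28.1% and 15.6%, against 15.8% and 15.1% of all genes. The 9 were SREBF1, SREBF2, FDFT1, TM7SF2, DHCR7, ACACA, SCD, FADS1 and FADS2. For SCD the log2 shift of that stretch was between -0.40 and -0.17 over the 5 groups, and for ACSS2, which was higher in all of them, between 0.13 and 0.39. Set against the siControl library of the same stretch, siYAP+TAZ was higher in 3 of 3 for 17 members and lower in 3 of 3 for 4, beside 27.6% and 28.7% of all genes. By this reading the log2 ratio reached 1.32 for TM7SF2, and it lay between 0.50 and 0.56 for SCD, between 0.46 and 0.66 for ACSS2, between 0.42 and 0.59 for HMGCS1, and between -0.42 and -0.36 for ACAT2.

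**Figure D4:**
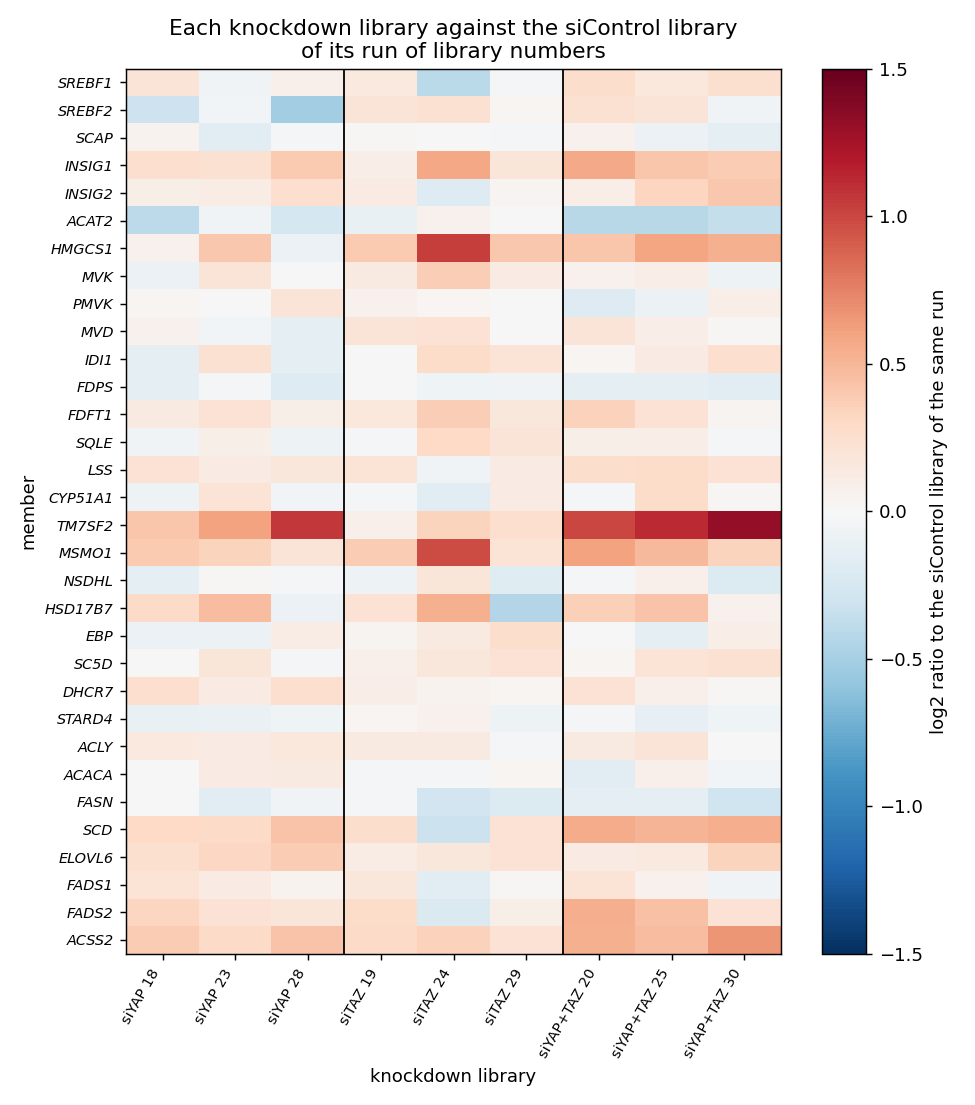
Log2 ratio of each knockdown library to the siControl library of the same stretch of library numbers, for 32 members and 9 libraries. TM7SF2 is the reddest in siYAP+TAZ, up to 1.32, and siTAZ library 24 stands out for HMGCS1 (1.04) and MSMO1 (0.98).

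Other genes of lipid metabolism were read from 6 lists in siYAP+TAZ against siControl, where 9.97% of all genes were higher and 8.39% lower. Of 8 measured genes of SREBP processing and turnover, 1 rose and 2 fell. Among them ERLIN1, a membrane protein of the endoplasmic reticulum, differed by -0.30 (SE 0.09, edgeR adjusted p = 0.0253) and MBTPS1, the site-1 protease that cleaves SREBP precursors, by 0.19 (SE 0.06, edgeR adjusted p = 0.0465). Of 13 genes of the non-sterol branch of the isoprenoid pathway, 1 rose and 3 fell. GGPS1, which makes geranylgeranyl diphosphate, was higher by 0.63 (SE 0.15, edgeR adjusted p = 0.00685), PDSS1, of ubiquinone synthesis, stood at -0.40 (edgeR adjusted p = 0.00202) and RABGGTB at -0.29 (edgeR adjusted p = 0.0285). Other annotated genes on the same strand cover 37.3% of the exonic bases of GGPS1, so its level is uncertain. Of 15 genes of sterol transport, storage and efflux, 2 rose and 1 fell, namely CYP27A1 at 0.62 (edgeR adjusted p = 0.0395), NR1H3, the gene of the sterol receptor LXR alpha, at 0.62 (edgeR adjusted p = 0.0101), and SOAT1, which esterifies cholesterol, at -0.33 (edgeR adjusted p = 0.00169). The calls of MBTPS1, ERLIN1, CYP27A1 and RABGGTB were each lost in at least 4 of the 6 fits that left out a library, and that of NR1H3 without siYAP+TAZ library 30 (edgeR adjusted p = 0.0697).

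Of 26 measured genes of further fatty acid and glycerolipid synthesis, 6 rose and 1 fell. IDH1, which supplies NADPH, had 627, 563 and 526 normalized counts in siControl and 987, 1061 and 880 in siYAP+TAZ. The groups stood far apart, at 0.77 (SE 0.12, edgeR adjusted p = 0.00014). LPIN1, a phosphatidate phosphatase, differed by 0.67 (SE 0.12, edgeR adjusted p = 0.000709) and SCD5, a second desaturase, by 0.65 (SE 0.10, edgeR adjusted p = 0.000152). Of 17 genes of fatty acid oxidation 2 rose and 0 fell by edgeR, with 6 at an unadjusted p under 0.05. PPARA, a nuclear receptor for fatty acids, was higher by 0.75 (SE 0.13, edgeR adjusted p = 0.000423) and PPARGC1A, a co-activator of oxidative genes, by 1.09 (SE 0.26, edgeR adjusted p = 0.00566), from a mean of 30.2 normalized counts in siControl to 64.4. Of 15 measured genes of lipid uptake and droplets 2 rose and 1 fell, among them PLIN3, a droplet coat protein, at 0.34 (SE 0.07, edgeR adjusted p = 0.00132) and SCARB1, a lipoprotein receptor, at -0.37 (SE 0.07, edgeR adjusted p = 0.00156). The medians of the 6 lists lay between -0.12 and 0.13, against 0.12 for the 32 members.

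**Figure D5:**
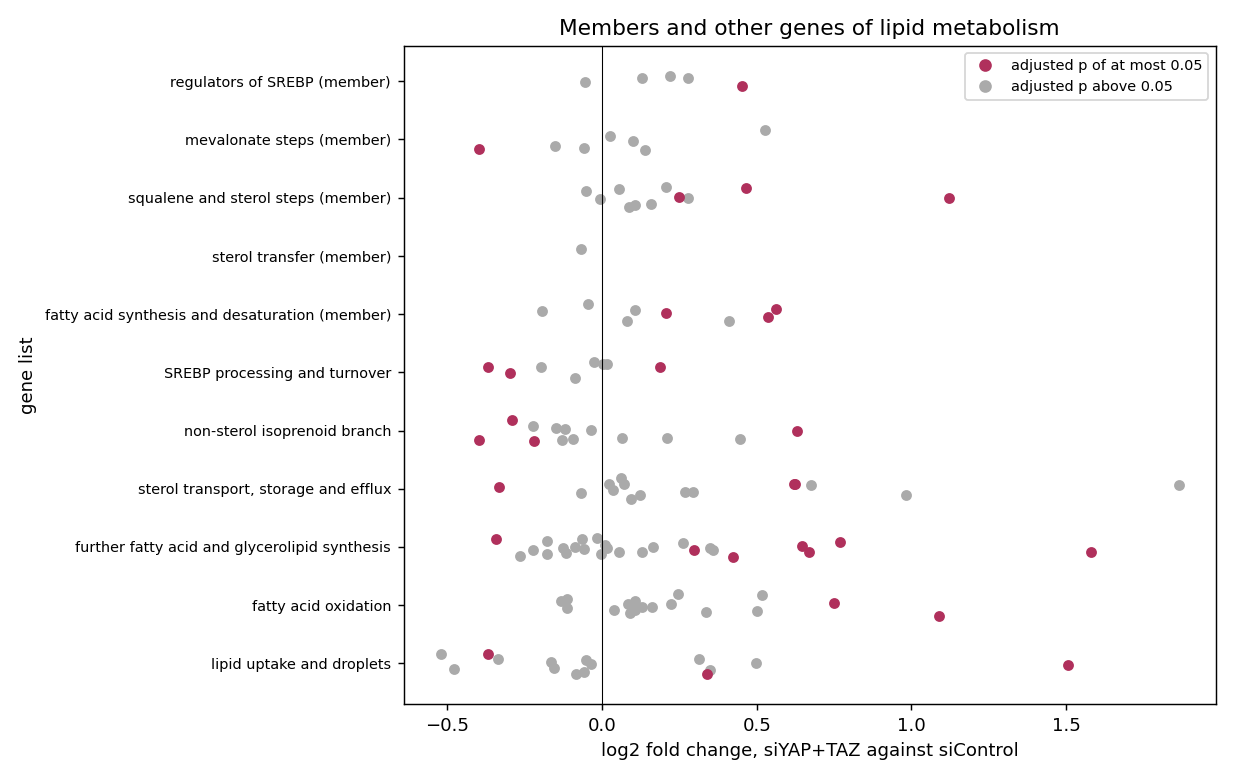
Log2 fold change in siYAP+TAZ against siControl of each gene in the 5 member roles and the 6 other lists, coloured where the adjusted p was at most 0.05. Points fall on both sides of 0 in most lists, and the member furthest to the right is TM7SF2 at 1.12.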

How the data were processed

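RNA was measured in 15 libraries of MDA-MB-231 cells, grouped by sample title. Per the submitters' processing notes and the methods, the authors aligned reads to GRCh38 with STAR 2.4.2a and deposited raw read counts per gene, without normalization. The authors also deposited a normalized signal (each count over its library's DESeq2 size factor) and log2 values (DESeq2's rlog), neither tested here, and fold changes and p-values of their own comparisons, which were not used. Raw counts of all 18858 genes were scaled by TMM and tested with edgeR 4.0.16 (quasi-likelihood, robust, 1 coefficient per group, all libraries), with Benjamini-Hochberg adjustment over all genes, and a call is an adjusted p of at most 0.05. The SE is the absolute log2 fold change divided by the square root of F. The test was tried on simulated data before use. Depth is given by the total counts per library, and genes with few counts carry large errors. Alternatives were DESeq2 1.42.0, limma-voom 3.58.1, other filters and scalings, no robust estimation, only the groups compared, Control as the reference, the run of library numbers as a block, and each library left out. Named genes are the members, the siRNA targets, and up to 3 genes per list with the largest absolute log2 fold change among those called whose mean normalized count reached 20. SOD2, TCP1 and SREBF2-AS1 were added for their overlap with members after values were seen. Overlaps, lengths and shared stretches of 50 bases came from GENCODE release 44. Members and lists were chosen with earlier results of these data known.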

Additional observations from a re-analysis of the deposited data

Results flagged for a closer look

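SREBF2 was singled out because every siYAP library lay below and every siTAZ library above the siControl libraries. The untransfected Control libraries, between 3946 and 4804 normalized counts, overlapped both groups. The direct difference, siYAP against siTAZ, was -0.43 on the log2 scale (SE 0.11, edgeR adjusted p = 0.0915). SREBF2 also differed between siYAP+TAZ and siYAP by 0.41 (SE 0.11, edgeR adjusted p = 0.0418).

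Differences between knockdown groups that passed the test were seen for 2 more members. TM7SF2 was higher in siYAP+TAZ than in siTAZ by 0.91 (SE 0.17, edgeR adjusted p = 0.00375), and ACAT2 was lower there, at -0.38 (SE 0.08, edgeR adjusted p = 0.0063), with exons that overlap those of TCP1.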

How the results depend on the processing

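The 8 members called in siYAP+TAZ against siControl numbered 8 to 11 under the other scalings, filters, tools, reference and choice of groups, and none of the 8 changed direction in these or the left-out fits. With the run of library numbers as a replicate block the count was 14 (12 higher, 2 lower, all 8 among them, with FADS2, FDFT1, HMGCS1, INSIG2 and SREBF1 higher and FASN lower in addition), with 28.6% of all genes called. Deviations of libraries in the same run correlated between -0.05 and 0.62 (median 0.39, 30 pairs), 26 of them above 0.1, and 10 of 15 libraries correlated best with their own run, a hint from the data about sets whose libraries are not stated. The block gave 7 members in siYAP (ACSS2, DHCR7, ELOVL6, SCD and TM7SF2 higher, ACAT2 and SREBF2 lower; 6.1% of all genes) and 3 in siTAZ (ACSS2, FDFT1 and HMGCS1; 10.3%). It gave 3 for siYAP+TAZ against siYAP (HMGCS1, SREBF2 and TM7SF2; 14.6%), 7 against siTAZ (ACSS2, FADS2, INSIG2, SCD, SREBF1 and TM7SF2 higher, ACAT2 lower; 14.8%) and 3 for siYAP against siTAZ (TM7SF2 higher, HMGCS1 and SREBF2 lower; 7.32%). DESeq2 called 2 in siYAP, 2 in siTAZ and 1 in siYAP against siTAZ. SREBF2 in siYAP+TAZ against siYAP was lost, leaving 0 members, with library size only and with only the groups compared. The cause was not tested. The median member log2 fold change in siYAP, 0.08, was 0.13 with library size only, where that of all genes was 0.05, and 0.0948 with filterByExpr. Members without overlap in siYAP+TAZ, 12, numbered 19 with library size only (16 higher, 3 lower, beside 21% and 14.3% of all genes) and 13 with DESeq2 size factors (10 higher, 3 lower, beside 18.6% and 17.5%), both chosen after seeing the data. CCAAT lay in 61.5% of member promoters and 32% of all when only the 250 bases before the start were read.

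Leaving out 1 library at a time, the count was 3 to 7 in siYAP+TAZ, 0 to 1 past the log2 threshold of 1, 0 to 1 in siYAP, 0 to 3 in siTAZ, 0 to 1 for siYAP+TAZ against siYAP, 2 to 4 against siTAZ, 0 to 1 for siYAP against siTAZ and 0 for the others. The share of all genes called in the fits with a library left out is not given beside these counts. The median in siYAP ran from 0.0756 to 0.111.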
